A study of Mus musculus with 10 samples.

Results

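The genes described here encode complex III, complex IV and ATP synthase of the mitochondrial inner membrane, with the assembly factors of complex IV and with cytochrome c, which carries electrons from complex III to complex IV. They were chosen by name, though with earlier results of these data known. The rule takes every gene whose single annotated symbol begins with Uqcr, Atp5 or Cox and a digit, and also Cyc1 and Cycs. Cox7a1 and Cox8b, subunit isoforms that are abundant in brown fat and striated muscle, were left out by the same rule and are given separately. The rule found 46 of the 17991 genes with a named probe. They comprised 9 genes of complex III, 1 of cytochrome c, 10 subunits of complex IV, 3 tissue-restricted isoforms of complex IV subunits, 7 assembly factors of complex IV, 5 genes of the F1 part of ATP synthase and 11 of its membrane part and stalk. Subunits encoded in mitochondrial DNA carry other symbols and are not among them.

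RNA came from the abdominal aorta of male ApoE-/- mice aged 14 weeks, which lack apolipoprotein E and are prone to atherosclerosis. Segments were pooled from 2 mice at a time. The 5 pools, numbered 1, 6, 8, 11 and 12, were each divided at the level of the kidney arteries into the suprarenal part above and the infrarenal part below. Each part was hybridised to 1 array, which gave 5 infrarenal and 5 suprarenal arrays, paired by the pool number in their titles. The comparison asks which genes are expressed at different levels in the 2 parts of the same aortas. All mice carried the knockout, so no group has apolipoprotein E. A pool mixes animals, so the spread between pools understates that between mice.

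Complex III passes electrons from ubiquinol to cytochrome c, complex IV passes them on to oxygen, and ATP synthase uses the proton gradient that both build up to make ATP. The F1 part of ATP synthase holds the catalytic sites, the membrane part Fo holds the rotating ring of c subunits, and a stalk holds the parts together. Arterial smooth muscle has few mitochondria beside those of brown adipocytes and striated muscle, and brown fat lies along parts of the aorta in mice. Brown adipocytes use the respiratory chain to make heat through the uncoupling protein Ucp1.

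Most of these genes read lower in infrarenal than in suprarenal aorta, but none passed the test, and the difference was carried by some pools and not by others. The difference, infrarenal minus suprarenal on the log2 scale, was negative for 44 of 46 genes, or 95.7%, where it was negative for 60.4% of all genes. The median over the 46 was -0.29 and the median over all genes was -0.05. The genes ranged from -0.92 for Uqcrq to 0.16 for Uqcr10. By limma with the pool as a block, 0 of the 46 passed an adjusted p of 0.05, as 0.0% of all genes did, and their adjusted p-values lay between 0.639 and 0.972. At an unadjusted p under 0.05 by limma, 10 of the 46 were lower, against 5.89% of all genes, and none was higher. These 10 were Uqcrc1, Uqcrfs1, Uqcr11, Cox5a, Cox7c, Cox11, Atp5b, Atp5md, Atp5l and Atp5h. Only Cox11, Cox19, Atp5b and Atp5h were lower in all 5 pools, 4 of 46 against 6.23% of all genes. For none of the 46 did the 5 infrarenal arrays lie wholly below the 5 suprarenal ones, which was so for 0.878% of all genes. The 95% intervals of these differences had a median half-width of 0.36 log2 units, wider than the median difference itself.

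Differences varied widely between pools. The median over the 46 genes was -0.05 in pool 1, -0.86 in pool 6, -0.29 in pool 8, -0.40 in pool 11 and 0.17 in pool 12. Of the 46 genes, 28 were lower in infrarenal aorta in pool 1, 43 in pool 6, 43 in pool 8, 40 in pool 11 and 17 in pool 12. The mean over the genes was -0.31 ± 0.36 (SD, n = 5 pools). Pool 6 gave the lowest difference of 39 genes and pool 12 the highest of 30. The suprarenal array of pool 12 read low: it gave the lowest suprarenal value of 35 of the 46 genes, where it did so for 22.4% of all genes. Its mean log2 intensity over the 46 was 5.30, and the other 4 suprarenal arrays lay between 5.69 and 5.82. Infrarenal arrays had means of 5.78, 4.96, 5.43, 5.33 and 5.30 in pools 1, 6, 8, 11 and 12. Pool 1 was high on both arrays, pool 12 low on both, and pools 6, 8 and 11 were high in the suprarenal part and lower in the infrarenal part.

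Leaving out pool 12 or pool 6 moved the result in opposite ways. Both pools were picked after seeing these genes. Pool 12 gave the highest difference of 30 of the 46 genes but of 21.5% of all genes. Pool 6 gave the lowest of 39 of the 46 but of 23.0% of all genes. Counts of the 46 must therefore rise without pool 12, here and below, and the shares of all genes beside them are no fair measure. Without pool 12 the median over the 46 genes was -0.39, and 30 of the 46 were lower at an unadjusted p under 0.05, against 8.97% of all genes. Then 25 of the 46 were lower in all 4 remaining pools, against 12.7% of all genes, and 9 had remaining infrarenal arrays wholly below the suprarenal ones, against 3.91%. Without pool 6 the median was -0.15 with 45 of 46 negative, and 4 of the 46 were lower at an unadjusted p under 0.05, against 2.62% of all genes. These 4 were Cox11, Atp5b, Atp5md and Atp5l. The smallest adjusted p by limma among the 46 was 0.383 without pool 12 and 0.939 without pool 6, so no gene passed either way.

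**Figure D1:**
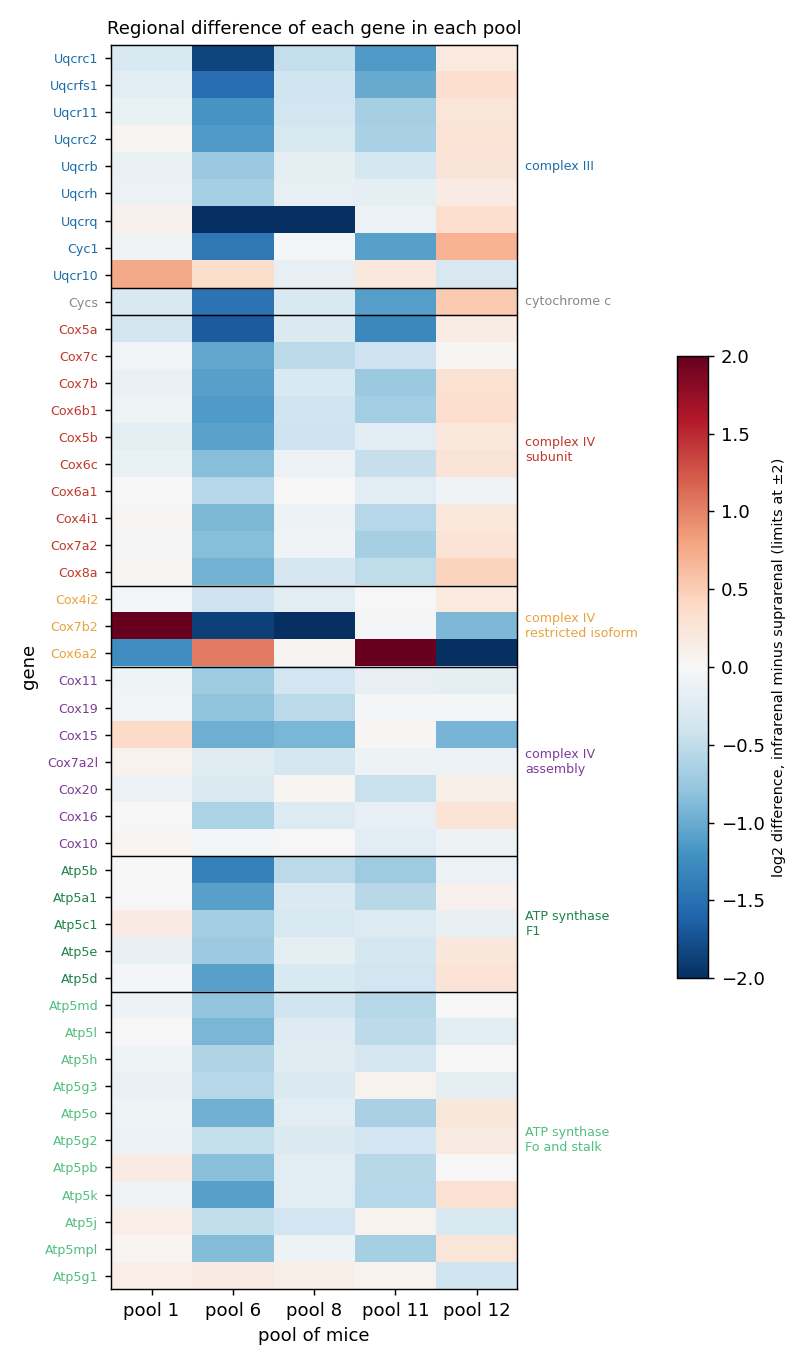
Log2 difference, infrarenal minus suprarenal, of each of the 46 genes (rows, grouped by complex) in each of the 5 pools (columns), with colours limited at ±2. Blue cells, lower in infrarenal aorta, number 43 in pool 6, 43 in pool 8 and 40 in pool 11, but 28 in pool 1 and 17 in pool 12.

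**Figure D2:**
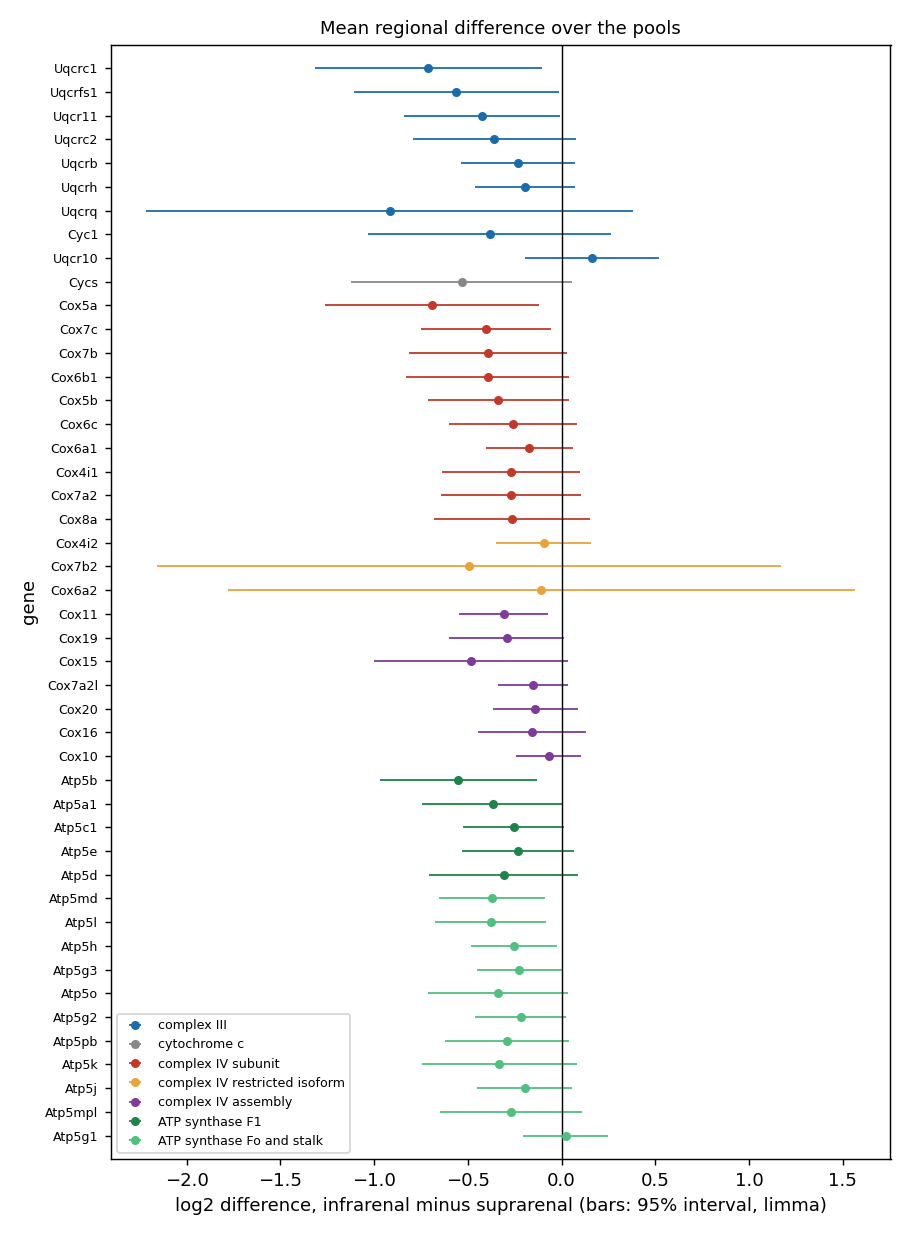
Mean log2 difference of each gene over the 5 pools with its 95% interval from limma, coloured by group. Points of 44 genes lie left of 0, and the intervals of 10 of them end before it.

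Promoters were looked at because many nuclear genes of the respiratory chain are known to share binding sites for a few factors, among them nuclear respiratory factor 1, the ETS factor GABP and estrogen-related receptors. RefSeq promoter sequences (GRCm38.p6), from 250 bases before to 50 bases after the annotated start, were held for 36 of the 46 genes. Both strands were searched, and a match is a description of letters and not of binding. The letters GCGCANGCG of nuclear respiratory factor 1 occurred in 11 of the 36 promoters, or 30.6%, and in 7.03% of the promoters of 27025 genes. These 11 were Uqcrc1, Uqcr11, Cycs, Cox6a1, Atp5c1, Atp5g2, Atp5g3, Atp5h, Atp5k, Atp5l and Atp5o. Their median log2 difference was -0.33, and that of the others was -0.29. Stretches around the match are given for cytochrome c, 1 gene of complex IV and 4 of ATP synthase, 5′ to 3′ on the strand of the gene, with the matched letters on either strand in capitals. Overlapping matches run together.
Cycs, chr6:50566606-50566646, minus strand: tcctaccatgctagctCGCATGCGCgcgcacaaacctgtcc
Cox6a1, chr5:115349096-115349136, minus strand: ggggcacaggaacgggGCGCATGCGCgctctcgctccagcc
Atp5c1, chr2:10080433-10080465, minus strand: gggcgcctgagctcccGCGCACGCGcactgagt
Atp5k, chr5:108434425-108434465, minus strand: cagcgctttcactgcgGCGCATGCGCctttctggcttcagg
Atp5l, chr9:44920959-44920992, minus strand: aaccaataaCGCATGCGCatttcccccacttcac
Atp5g2, chr15:102671065-102671105, minus strand: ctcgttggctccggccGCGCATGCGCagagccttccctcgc

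The ETS letters CCGGAAGT occurred in 7 of 36 promoters, or 19.4%, and in 4.31% of all promoters. The 7 were Uqcrh, Uqcr11, Cox8a, Cox10, Cox15, Cox16 and Atp5h, with a median difference of -0.25, and the others had one of -0.31. Matches in 2 genes of complex III and 1 of complex IV assembly are shown with the ETS letters in capitals.
Uqcrh, chr4:116075071-116075097, minus strand: acgaggagtatgccgcACTTCCGGcca
Uqcr11, chr10:80406864-80406903, minus strand: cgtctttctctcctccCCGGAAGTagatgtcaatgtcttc
Cox10, chr11:64079476-64079515, minus strand: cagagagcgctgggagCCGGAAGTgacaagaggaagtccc

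The other factors matched few of these promoters. The letters TCAAGGTCA of estrogen-related receptors were found in 1 of 36, or 2.78%, and in 0.466% of all promoters. Those of CREB, TGACGTCA, were found in 2, or 5.56%, and in 2.03% of all. The YY1 letters AAGATGGCG were found in 2 (Cox10 and Atp5j), or 5.56%, and in 1.64% of all. The Sp1 letters GGGGCGGGG were found in 5, or 13.9%, close to the 12.9% of all promoters. The match of Atp5g3 to estrogen-related receptors and the CREB matches of Cycs and Uqcrfs1 are shown in capitals.
Atp5g3, chr2:73911354-73911394, minus strand: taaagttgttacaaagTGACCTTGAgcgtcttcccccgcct
Cycs, chr6:50566715-50566754, minus strand: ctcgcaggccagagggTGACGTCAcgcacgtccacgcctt
Uqcrfs1, chr13:30545322-30545361, minus strand: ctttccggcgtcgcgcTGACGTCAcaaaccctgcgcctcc

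The upstream stretches of Atp5h and Cox5a are given whole. Both genes read lower at an unadjusted p under 0.05, with an adjusted p of 0.639 each by limma. A link between promoter letters and the regional difference was not tested. The 250 bases before the start of Atp5h hold both a nuclear respiratory factor 1 match and an ETS match, in capitals, and those before Cox5a hold no match to the 6 motifs searched.
Atp5h, chr11:115419920-115420169, minus strand: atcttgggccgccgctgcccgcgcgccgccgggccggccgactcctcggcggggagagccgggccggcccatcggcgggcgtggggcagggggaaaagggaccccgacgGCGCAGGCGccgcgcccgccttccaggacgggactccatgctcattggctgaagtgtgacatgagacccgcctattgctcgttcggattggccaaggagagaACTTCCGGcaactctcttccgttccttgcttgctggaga
Cox5a, chr9:57520982-57521231, plus strand: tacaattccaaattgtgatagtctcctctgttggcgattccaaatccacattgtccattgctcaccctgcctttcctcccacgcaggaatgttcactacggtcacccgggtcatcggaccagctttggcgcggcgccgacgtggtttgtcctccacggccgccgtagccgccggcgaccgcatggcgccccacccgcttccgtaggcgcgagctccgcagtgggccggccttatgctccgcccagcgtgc

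Of the 9 complex III genes, 8 had negative differences, with a median of -0.38, and 3 were lower at an unadjusted p under 0.05. None of the 9 was lower in all 5 pools. The median of the group was -0.11 in pool 1, -1.18 in pool 6, -0.33 in pool 8, -0.65 in pool 11 and 0.25 in pool 12. Without pool 12, 7 of the 9 were lower at an unadjusted p under 0.05, and without pool 6 none was. Beside these counts and those of the groups below, 5.89% of all genes were lower at that p by limma. The share was 8.97% without pool 12 and 2.62% without pool 6, and 6.23% of all genes were lower in all 5 pools.

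Uqcrc1 encodes core protein 1, which faces the matrix and helps to hold the complex together. Its log2 intensity was 1.55, 0.52, 1.22, 0.86 and 1.21 on the infrarenal arrays of pools 1, 6, 8, 11 and 12, and 1.85, 2.36, 1.70, 1.99 and 1.01 on the suprarenal arrays in the same order. The infrarenal array was the lower of the pair in pools 1, 6, 8 and 11, and the regions overlapped because the suprarenal array of pool 12 was as low as the infrarenal ones. The difference was -0.71 ± 0.26 (limma's moderated SE, n = 5 pools), an infrarenal level of 0.611 times the suprarenal one. By limma the unadjusted p was 0.0266 and the adjusted p 0.639. Without pool 12 the difference was -0.94 ± 0.24, and without pool 6 -0.43 ± 0.20. For single genes, ± is this moderated SE throughout. It draws on the variance of other probes and can be smaller than the spread of the gene's own 5 pool differences gives.

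Uqcrfs1, the Rieske iron-sulphur protein that takes electrons from ubiquinol, read 6.95, 5.73, 6.19, 5.97 and 6.15 in infrarenal and 7.17, 7.26, 6.59, 6.97 and 5.81 in suprarenal aorta, in the same pool order. The infrarenal value was again lower in every pool but 12, and the lowest value of all was the infrarenal one of pool 6. Its difference was -0.56 ± 0.24. The small subunit gene Uqcr11 read 6.50, 5.49, 6.12, 5.93 and 5.94 in infrarenal and 6.63, 6.67, 6.51, 6.60 and 5.70 in suprarenal aorta. Its suprarenal arrays were within a narrow range apart from that of pool 12, and its difference was -0.42 ± 0.18. By limma the adjusted p of both genes was 0.639.

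Cyc1 encodes cytochrome c1, the haem subunit that hands electrons to cytochrome c. Its infrarenal values were 6.17, 4.94, 5.89, 5.13 and 5.62 and its suprarenal values 6.24, 6.37, 5.92, 6.22 and 4.92. Pools 6 and 11 differed by more than 1 log2 unit, pools 1 and 8 by less than 0.1, and pool 12 the other way by 0.69, which gave a mean difference of -0.38 ± 0.28. Uqcrc2, the other core protein, differed by -0.36 ± 0.19, the ubiquinone-binding subunit gene Uqcrb by -0.23 ± 0.13 and the hinge protein gene Uqcrh by -0.20 ± 0.12, each with at least 1 pool of the opposite sign. Uqcrq had the most negative difference, -0.92 ± 0.56, but its probe was among the dimmest 30% and was at the floor of -5.17 on the infrarenal array of pool 8, where its value is only a bound.

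Uqcr10, another small subunit, was the exception in complex III. It read 2.72, 1.80, 1.92, 2.41 and 1.99 in infrarenal and 1.96, 1.45, 2.09, 2.21 and 2.31 in suprarenal aorta. The infrarenal value was higher in pools 1, 6 and 11 and lower in pools 8 and 12, and the mean difference was 0.16 ± 0.15 (95% interval -0.19 to 0.52). A second, dimmer probe of the gene also had a positive difference, 0.19 ± 0.19.

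Cycs, the somatic cytochrome c gene, followed the pattern of most complex III genes. Its infrarenal values were 6.88, 5.58, 6.54, 5.94 and 6.25 and its suprarenal values 7.18, 7.06, 6.84, 7.05 and 5.73, in the order of pools 1, 6, 8, 11 and 12. Apart from pool 12 each suprarenal array read higher than its infrarenal partner, by 0.30 in pools 1 and 8 and by more than 1 in pools 6 and 11. The difference of -0.53 ± 0.26 had an adjusted p of 0.639 by limma, and without pool 12 it was -0.80 ± 0.20. A second probe was among the dimmest 30% and differed by -0.14.

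**Figure D3:**
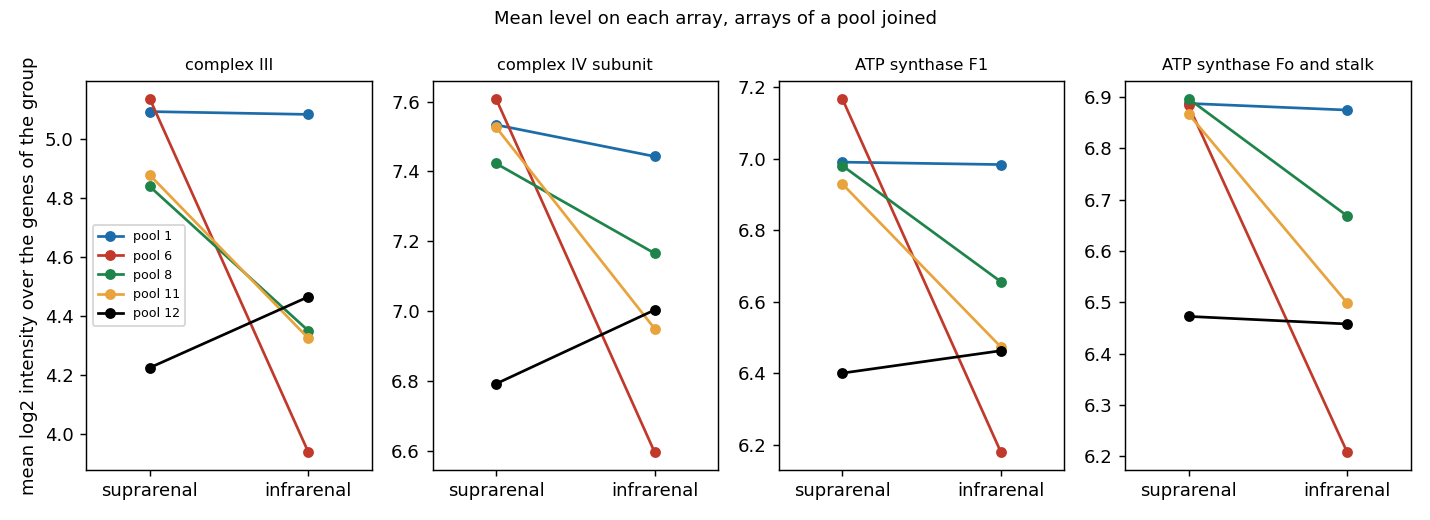
Mean log2 intensity over the genes of complex III, the subunits of complex IV, F1 and Fo with stalk on each array, with the arrays of a pool joined. Pool 1 is nearly level, pools 6, 8 and 11 are lower in the infrarenal part, and the suprarenal array of pool 12 lies below the other 4 in every panel.

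All 10 subunit genes of complex IV that are expressed in most tissues had negative differences, with a median of -0.30 and a mean of -0.35 ± 0.47 (SD, n = 5 pools). Cox5a and Cox7c were lower at an unadjusted p under 0.05, and no gene of the group was lower in all 5 pools. The group's median was -0.07 in pool 1, -0.995 in pool 6, -0.30 in pool 8, -0.55 in pool 11 and 0.24 in pool 12, where 1 of the 10 genes was negative. Without pool 12, 9 of the 10 were lower at an unadjusted p under 0.05, and without pool 6 none was.

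Cox5a encodes subunit 5a, which binds the surface of the complex on the matrix side. It read 4.82, 3.59, 4.70, 3.99 and 4.11 in infrarenal and 5.18, 5.26, 4.99, 5.29 and 3.96 in suprarenal aorta, in the usual pool order. Suprarenal arrays of pools 1, 6, 8 and 11 stood above every infrarenal array, and that of pool 12 stood among the infrarenal ones. The difference was -0.69 ± 0.25, an infrarenal level of 0.619 times the suprarenal one, with an unadjusted p of 0.0234 and an adjusted p of 0.639 by limma. It was -0.90 ± 0.23 without pool 12 and -0.45 ± 0.21 without pool 6.

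Cox7c, a small membrane subunit, read 8.0, 7.19, 7.52, 7.49 and 7.51 in infrarenal and 8.06, 8.23, 8.07, 7.90 and 7.48 in suprarenal aorta. The infrarenal array was lower in pools 1, 6, 8 and 11, and the arrays of pool 12 were within 0.03 log2 units of each other. The difference was -0.40 ± 0.15. Cox7b, the ubiquitous form of subunit 7b, read 7.61, 6.58, 7.31, 7.04 and 7.15 in infrarenal and 7.74, 7.66, 7.61, 7.78 and 6.85 in suprarenal aorta. Its suprarenal array of pool 12 was again the low one, and the difference was -0.39 ± 0.18. The adjusted p of each was 0.639 by limma.

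The remaining subunits did not pass an unadjusted p of 0.05 by limma. Cox6b1 differed by -0.39 ± 0.19, Cox5b by -0.34 ± 0.16, Cox4i1, the usual form of subunit 4, by -0.27 ± 0.16, and Cox6c by -0.26 ± 0.15. Cox7a2 differed by -0.27 ± 0.16 and Cox8a by -0.26 ± 0.18. Cox6a1 had the smallest difference, -0.17 ± 0.10, with a 95% interval of -0.40 to 0.06.

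Tissue-restricted isoforms of complex IV had negative mean differences in 3 of 3 genes, with a median of -0.11, and none was lower at an unadjusted p under 0.05. Cox4i2, a form of subunit 4 that is enriched in lung, read from 0.98 to 1.58 in infrarenal and from 1.14 to 1.56 in suprarenal aorta, with a difference of -0.10 ± 0.11. Its pool differences were -0.03, -0.42, -0.21, -0.01 and 0.19, lowest in pool 6 and highest in pool 12, as for most ubiquitous subunits. Cox7b2, a testis form of subunit 7b, was among the dimmest 30% of probes and at the floor on the infrarenal array of pool 6, and its difference of -0.49 ± 0.72 rests on a dim probe. Cox6a2, the heart and skeletal muscle form of subunit 6a, varied most among the arrays. It read 0.20, 0.50, 2.96, 1.93 and 0.33 in infrarenal and 1.45, -0.55, 2.91, -0.88 and 3.53 in suprarenal aorta, so that its pool differences were -1.24, 1.04, 0.05, 2.81 and -3.20. The sign turned from pool to pool, and the mean difference was -0.11 ± 0.73 (95% interval -1.78 to 1.57).

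Skeletal muscle markers turned with Cox6a2. The mean difference of 16 measured marker genes of skeletal muscle was -1.84, 1.89, 0.88, 2.99 and -2.62 in pools 1, 6, 8, 11 and 12, with the same sign as Cox6a2 in each pool. Acta1, the actin of skeletal muscle, differed by -1.94, 2.59, 0.67, 3.63 and -2.90 in the same pools, and Ckm, the muscle creatine kinase, by -3.03, 2.79, 1.16, 3.52 and -3.54. The summed intensity of the list lay between 122 and 834 on infrarenal and between 59.7 and 943 on suprarenal arrays, and no gene of the list was at the floor. The part of muscle RNA in the level of Cox6a2 was not tested.

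The isoforms left out by the rule had wider differences than the ubiquitous isoforms of the same subunits. Cox7a1 read 5.79, 3.05, 5.14, 3.91 and 4.81 in infrarenal and 6.14, 6.0, 5.78, 6.31 and 3.97 in suprarenal aorta, and its difference was -1.10 ± 0.50. Cox8b read 8.23, 6.46, 7.63, 7.0 and 7.65 in infrarenal and 8.53, 8.52, 8.15, 8.42 and 6.36 in suprarenal aorta, and its difference was -0.60 ± 0.41. In pool 6 Cox7a1 differed by -2.95 and its ubiquitous counterpart Cox7a2 by -0.86, and Cox8b by -2.06 and Cox8a by -0.95. In pool 12 Cox7a1 and Cox8b were higher in infrarenal aorta, by 0.84 and 1.30, and Cox7a2 and Cox8a by 0.27 and 0.44. Whether the isoforms of a subunit differ in their regional difference was not tested.

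**Figure D4:**
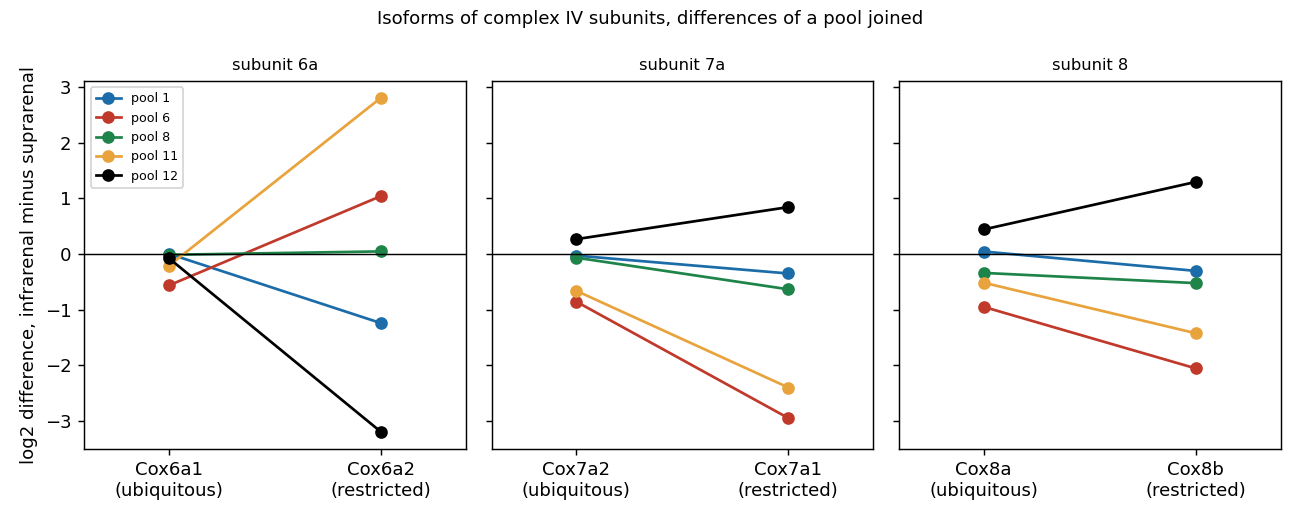
Log2 difference, infrarenal minus suprarenal, of a ubiquitous and a restricted isoform of subunits 6a, 7a and 8 of complex IV, with the values of a pool joined. Cox7a1 and Cox8b keep the pool order of Cox7a2 and Cox8a over a wider range, and Cox6a2 runs from -3.20 in pool 12 to 2.81 in pool 11.

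All 7 assembly genes of complex IV had negative differences, with a median of -0.16. Cox11 was lower at an unadjusted p under 0.05, and Cox11 and Cox19 were lower in all 5 pools. The group's median was 0.00 in pool 1, -0.63 in pool 6, -0.36 in pool 8, -0.16 in pool 11 and -0.10 in pool 12, so pool 12 did not stand on the other side of 0 here. Without pool 12, 2 of the 7 were lower at an unadjusted p under 0.05, and without pool 6, 1 was.

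Cox11 delivers copper to the catalytic subunit Cox1. It read 4.07, 3.91, 3.89, 4.08 and 3.83 in infrarenal and 4.16, 4.63, 4.27, 4.25 and 4.03 in suprarenal aorta, with the infrarenal array the lower in each pool. The regions overlapped by a few arrays, and the difference was -0.31 ± 0.10 with an unadjusted p of 0.0173 and an adjusted p of 0.639 by limma. Cox19, another factor of copper handling, read 2.89, 2.61, 2.61, 2.92 and 2.60 in infrarenal and 2.94, 3.41, 3.15, 2.95 and 2.64 in suprarenal aorta. It was lower in each pool, by 0.03 to 0.05 in pools 1, 11 and 12, and the difference was -0.29 ± 0.13. Cox15, which makes the haem A of the complex, differed by -0.48 ± 0.22, with pool differences of 0.38, -0.97, -0.91, 0.03 and -0.93 and so a positive value in pools 1 and 11. Cox10, which makes the precursor of haem A, differed by -0.07 ± 0.07, Cox16 by -0.16 ± 0.12, Cox20 by -0.14 ± 0.10 and the supercomplex factor gene Cox7a2l by -0.15 ± 0.08.

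The 5 genes of the F1 part of ATP synthase all had negative differences, with a median of -0.31, and Atp5b was lower at an unadjusted p under 0.05. The median was -0.01 in pool 1, -1.08 in pool 6, -0.30 in pool 8, -0.39 in pool 11 and 0.09 in pool 12. Without pool 12, 4 of the 5 were lower at an unadjusted p under 0.05, and without pool 6, 1 was.

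Atp5b encodes the catalytic beta subunit. Its values were 6.39, 5.43, 5.89, 5.72 and 5.70 in infrarenal and 6.40, 6.79, 6.43, 6.43 and 5.82 in suprarenal aorta, in the order of pools 1, 6, 8, 11 and 12. The infrarenal array was the lower in each pool, but by 0.01 in pool 1, and the regions overlapped. The difference was -0.55 ± 0.18, an infrarenal level of 0.683 times the suprarenal one, with an unadjusted p of 0.0164 and an adjusted p of 0.639 by limma. It was -0.66 ± 0.19 without pool 12 and -0.35 ± 0.13 without pool 6. Atp5a1, the alpha subunit that alternates with beta around the head, read 6.83, 5.89, 6.38, 6.19 and 6.18 in infrarenal and 6.83, 6.97, 6.66, 6.75 and 6.09 in suprarenal aorta. Pool 1 showed no difference, pool 12 a positive one of 0.09, and the mean difference was -0.37 ± 0.16.

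Atp5c1, the gamma subunit that turns inside the head, differed by -0.25 ± 0.12, with a positive value in pool 1. A second Atp5c1 probe, among the dimmest 30%, differed the other way by 0.79 ± 0.40. The genes of the small delta and epsilon subunits, Atp5d and Atp5e, differed by -0.31 ± 0.17 and -0.23 ± 0.13.

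Of the 11 genes of the membrane part and stalk, 10 had negative differences, with a median of -0.27. Atp5md, Atp5l and Atp5h were lower at an unadjusted p under 0.05. The median was -0.08 in pool 1, -0.79 in pool 6, -0.24 in pool 8, -0.52 in pool 11 and 0.00 in pool 12. Without pool 12, 7 of the 11 were lower at an unadjusted p under 0.05, and without pool 6, 2 were. Atp5j2, the gene of subunit f, is not among the 46 because its probe was also annotated to Hspa8.

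Atp5md encodes the small membrane subunit DAPIT. It read 6.23, 5.42, 5.85, 5.65 and 5.51 in infrarenal and 6.33, 6.21, 6.25, 6.22 and 5.51 in suprarenal aorta, lower in pools 1, 6, 8 and 11 and level in pool 12. Its difference was -0.37 ± 0.12, with an adjusted p of 0.639 by limma. Subunit g, encoded by Atp5l, read 7.01, 6.09, 6.63, 6.33 and 6.23 in infrarenal and 7.01, 7.0, 6.89, 6.85 and 6.44 in suprarenal aorta. It was lower in each pool but pool 1, where the arrays were level, and its difference was -0.38 ± 0.13.

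Atp5h, subunit d of the stalk, read 7.81, 7.21, 7.58, 7.48 and 7.24 in infrarenal and 7.90, 7.82, 7.82, 7.81 and 7.24 in suprarenal aorta. It counts as lower in all 5 pools, but the arrays of pool 12 were equal to 2 decimals. The difference was -0.25 ± 0.10. Other genes of the stalk, Atp5o for the OSCP subunit, Atp5pb for subunit b and Atp5j for coupling factor 6, differed by -0.34 ± 0.16, -0.29 ± 0.14 and -0.20 ± 0.11. The membrane subunit genes Atp5k and Atp5mpl differed by -0.33 ± 0.18 and -0.27 ± 0.16.

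Several genes serve the c ring of ATP synthase: Atp5g1, Atp5g2 and Atp5g3 encode the same mature c subunit behind different import signals. Atp5g2 differed by -0.22 ± 0.11 and Atp5g3 by -0.23 ± 0.10. Atp5g1 read 5.74, 5.54, 5.96, 5.91 and 5.71 in infrarenal and 5.61, 5.36, 5.84, 5.84 and 6.10 in suprarenal aorta. It was higher in infrarenal aorta in pools 1, 6, 8 and 11, by 0.08 to 0.17, and lower in pool 12, by 0.39. Pool 6 thus gave its highest and pool 12 its lowest difference, where most of the other genes had their lowest in pool 6 and their highest in pool 12. The mean difference was 0.02 ± 0.10, with a 95% interval of -0.21 to 0.25. Differences between the 3 genes were not tested.

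Most other genes of the respiratory chain also had negative differences. All 30 measured of 36 listed complex I genes had negative differences, against 60.4% of all genes, with a median of -0.34. At an unadjusted p under 0.05 by limma, 11 were lower, against 5.89% of all genes. The mean over complex I was -0.04, -0.95, -0.30, -0.51 and 0.11 in pools 1, 6, 8, 11 and 12. Ndufb7, an accessory subunit, was lower in all 5 pools by -0.47 ± 0.12, and Ndufb3 differed by -0.41 ± 0.13. Of the 30, 7 were lower in all 5 pools, against 6.23% of all genes. The 4 genes of complex II, the succinate dehydrogenase, had a median of -0.42, and Sdhc was the 1 gene lower at an unadjusted p under 0.05. Sdhc, a membrane anchor, differed by -0.42 ± 0.16 and Sdhb, the iron-sulphur subunit, by -0.43 ± 0.20.

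Of 32 listed assembly factors and regulators of complexes III, IV and ATP synthase outside the rule, 24 were measured, and all 24 had negative differences, with a median of -0.21. At an unadjusted p under 0.05 by limma, 8 of them were lower, against 5.89% of all genes. Taco1, which activates translation of Cox1, differed by -0.57 ± 0.18, and Ndufa4l2 by -0.24 ± 0.08, both with the same sign in all 5 pools. Of the 24, 7 were lower in all 5 pools, against 6.23% of all genes. Among 17 measured of 18 listed regulators of mitochondrial biogenesis, 15 had negative differences, with a median of -0.15. Of these, 3 (Polrmt, Gabpa and Tfb2m) were lower at an unadjusted p under 0.05 by limma, against 5.89% of all genes. Polrmt, the RNA polymerase of mitochondria, read 3.47, 3.63, 3.57, 3.73 and 3.69 in infrarenal and 3.90, 4.05, 3.92, 4.12 and 3.85 in suprarenal aorta, with no overlap between the regions and a difference of -0.35 ± 0.08. Gabpa, a subunit of the ETS factor whose letters were searched above, was lower in all 5 pools, by -0.36 ± 0.12. Of the 17 regulators, 4 were lower in all 5 pools, against 6.23% of all genes, and 1 had no overlap, against 0.878%. None of these genes passed an adjusted p of 0.05 by limma.

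Markers of other cell types were read beside these values. For every count of negative differences among the marker lists below, the share over all genes was 60.4%. Smooth muscle markers, which define the labelled tissue, were present on all arrays: the mean log2 intensity of 10 genes lay between 6.02 and 6.41, and their median difference was 0.07. Their mean difference was 0.07, 0.29, 0.10, 0.20 and -0.15 in pools 1, 6, 8, 11 and 12, highest in pool 6 and negative in pool 12. Brown adipocyte markers had their lowest mean difference in pool 6 and their highest in pool 12, as the median over the 46 genes did. Without Cox7a1 and Cox8b, 15 of 16 listed markers were measured, 14 of the 15 had negative differences, and the median was -0.53. Of the 15, 1 (Fabp3) was lower at an unadjusted p under 0.05 by limma, against 5.89% of all genes. The mean difference of the markers was 0.02, -1.79, -0.62, -1.53 and 1.21 in pools 1, 6, 8, 11 and 12. Over the 46 genes the mean was 0.005, -0.86, -0.36, -0.36 and 0.001, and the median -0.05, -0.86, -0.29, -0.40 and 0.17. The mean in pool 12 includes Cox6a2 at -3.20 and Cox7b2 at -0.91. The summed intensity of the markers lay between 166 and 658 on infrarenal arrays and between 143 and 820 on suprarenal arrays, lowest on the suprarenal array of pool 12.

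Ucp1, which defines brown adipocytes, was far above the floor in both regions. It read 8.16, 5.64, 7.25, 6.14 and 7.02 in infrarenal and 8.25, 8.22, 7.79, 8.43 and 4.37 in suprarenal aorta, with a difference of -0.57 ± 0.67. Cidea, a lipid droplet protein of the same cells, read 7.40, 5.27, 6.46, 5.72 and 6.43 in infrarenal and 7.27, 7.61, 6.91, 7.46 and 3.97 in suprarenal aorta. Both were lowest on the suprarenal array of pool 12 and next lowest on the infrarenal array of pool 6. Over the 46 genes the mean log2 intensity was lowest on the infrarenal array of pool 6, at 4.96. It was 5.30 on both arrays of pool 12, though on the infrarenal one Ucp1 read 7.02 and Cidea 6.43. Of the brown adipocyte markers only Zic1 was at the floor on any array, and none was on all arrays.

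General adipocyte markers, 12 measured of 16, all had negative differences, with a median of -0.33. Their means were -0.19, -1.43, -0.40, -0.32 and 0.54 by pool, also lowest in pool 6 and highest in pool 12. Their summed intensity lay between 670 and 1138 on infrarenal and between 649 and 1388 on suprarenal arrays. Macrophage markers had negative differences in 9 of 10 genes with a median of -0.25. Of the 10, 4 (Cd14, C1qa, C1qb and C1qc) were lower at an unadjusted p under 0.05 by limma, against 5.89% of all genes. These and Lyz2, 5 in all, were lower in all 5 pools, against 6.23%, and for C1qc the regions did not overlap, against 0.878%. The mean difference of the macrophage markers was -0.05, -0.40, -0.32, 0.02 and -0.47 by pool, so pool 12 was their lowest. Sympathetic neuron markers had negative differences in 10 of 11 genes with a median of -0.19, but their means by pool were -2.49, -0.06, 1.20, -1.46 and 1.53. Endothelial markers were negative in 4 of 8 with a median of -0.03, where 60.4% of all genes were negative. The part of brown adipocyte, adipocyte and macrophage RNA in the differences of the respiratory chain genes was not tested. In these bulk samples, fewer cells of a type and less RNA per cell cannot be told apart.

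**Figure D5:**
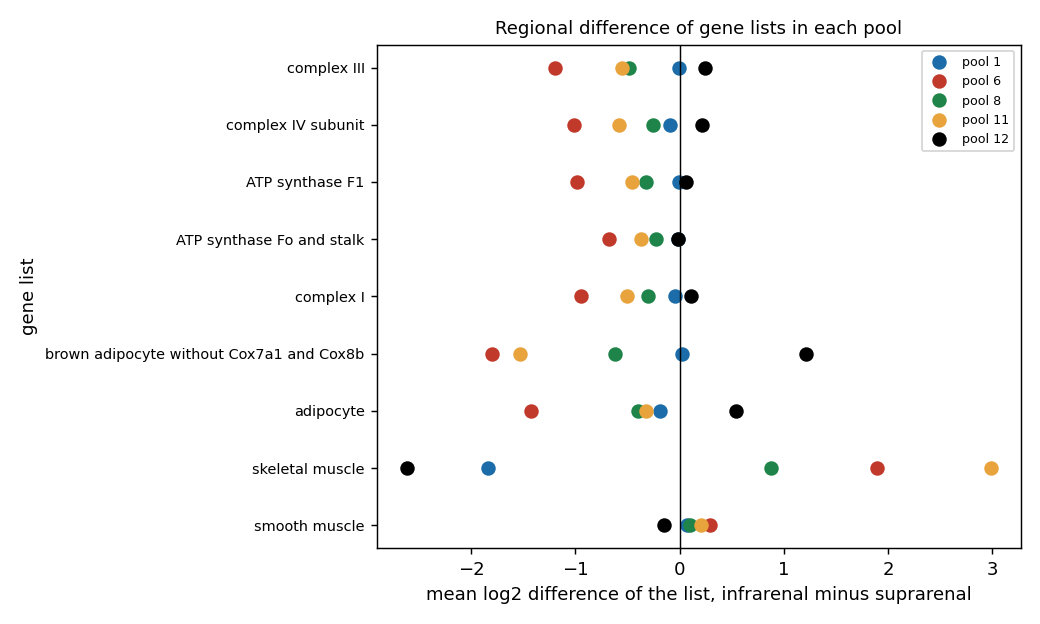
Mean log2 difference, infrarenal minus suprarenal, of gene lists (rows) in each pool (points). Respiratory chain lists and both adipocyte marker lists run from pool 6 on the left to pools 1 and 12 on the right, over a wider range for the markers. Skeletal muscle markers order the pools otherwise. Smooth muscle markers lie between -0.15 in pool 12 and 0.29 in pool 6.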

How the data were processed

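Total RNA of each pooled aorta segment (0.34 to 0.54 µg) was turned into biotin-labelled cRNA by linear amplification, with a Cy5-streptavidin stain, per the labels' protocols. Intensities were deposited on a linear scale, already brought by the authors to array medians of 1.001 to 1.003, as the values show. No source used here gives the background correction or the scaling method. Of the values, 1968 were missing and 1755 at or below 0. Values below 0.0278, percentile 1 of the positive values, were raised to it (5328 values) and log2 was taken, which compresses differences of dim probes. Probes with under 3 values in a region were dropped, leaving 36061 of 36227.

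Probes were named from GEO's platform annotation, with symbols brought up to date by Entrez identifier (RefSeq, GRCm38.p6): 21615 probes had 1 symbol (21487 matched by identifier), 681 several and 13931 none. The brightest probe stood for a gene. No level was compared between probes, and cross-hybridisation with paralogs or pseudogenes was not analysed here.

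The regional difference was fitted in R 4.3.3 with limma 3.58.1 (two-sided, mean-variance trend, pool as a block), with Benjamini-Hochberg adjustment over all probes. The series design divides each pool into both regions, and arrays with the same number in their titles were taken as 1 pool. The values gave no sign of it: after subtracting the mean of the region, arrays of a pair correlated at 0.04, 0.01, -0.03, -0.05 and -0.09 in pools 1, 6, 8, 11 and 12. P-values rest on 5 pools, and the SE given for a gene is limma's moderated one. Named were Cyc1, Cox5a, Uqcrc1, the 3 smallest p per group and members of opposite sign, the restricted isoforms, Cox7a1, Cox8b, 2 genes per pathway list, and Ucp1, Cidea, Acta1 and Ckm; the other members are given by their values. Genes and lists were chosen with earlier results of these data known. Alternatives were quantile normalization, probes averaged per gene, an offset of 0.2701 instead of a floor, leaving out the dimmest 30% of probes, no block, no trend, RNA input as a covariate, and each pool left out. Counts without pools 12 and 6 across pools and arrays, and the brown adipocyte list without Cox7a1 and Cox8b, were added after seeing the data. The script was tested on simulated data.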

Additional observations from a re-analysis of the deposited data

Results flagged for a closer look

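The suprarenal array of pool 12 stood apart from the other 4 by Dixon's test in 12 of 31 suprarenal sets of 5 values. The sets share arrays, and some are means that contain genes that are also sets of their own. The 12 are therefore not separate observations. The 1 in 20 that chance gives for a single set is no measure of them. No array stood apart in the 31 infrarenal sets, and no other in the suprarenal ones. Its mean log2 intensity over all 46 genes was 5.30 (5.69 to 5.82 on the others), over the complex IV subunits 6.79 (7.42 to 7.61), and over the membrane part and stalk of ATP synthase 6.47 (6.87 to 6.90).

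By gene, it read 5.70 for Uqcr11 (6.51 to 6.67 on the others), 5.73 for Cycs (6.84 to 7.18), 3.96 for Cox5a (4.99 to 5.29) and 6.85 for Cox7b (7.61 to 7.78). In ATP synthase it read 5.51 for Atp5md (6.21 to 6.33), 6.44 for Atp5l (6.85 to 7.01) and 7.24 for Atp5h (7.81 to 7.90). For the isoforms left out by the rule it read 3.97 for Cox7a1 (5.78 to 6.31) and 6.36 for Cox8b (8.15 to 8.53). On the same array the mean log2 intensity of the brown adipocyte markers was 1.66, and 3.35 to 3.89 on the others, and that of the skeletal muscle markers was 5.21, and 1.28 to 4.11 on the others. The part of either in the low values was not tested. Whether the arrays of pool 12 carry each other's labels was not tested either. Their means over the 46 genes were both 5.30, but the mean difference in pool 12 includes Cox6a2 at -3.20 and Cox7b2 at -0.91. The median difference in pool 12 was 0.17, and 17 of the 46 genes were lower in infrarenal aorta. With labels exchanged each difference in that pool would have the opposite sign.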

How the results depend on the processing

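The direction of the 46 genes as a group held in every setting tried: 42 to 45 of them were lower in infrarenal aorta, and 0 passed an adjusted p of 0.05. With the dimmest 30% of probes left out, 44 of the 46 remained and 42 were lower. The median difference of the 46 was -0.17 after quantile normalization and -0.15 to -0.39 with a pool left out. At an unadjusted p under 0.05 there were 10 of the 46, but 4 with no variance trend, and 3 (without pool 11) to 30 (without pool 12) with a pool left out. Over all genes, 1059 were lower at that p, but 512 after quantile normalization, 537 with no variance trend, and 471 to 1614 with a pool left out. After quantile normalization 1 probe of all passed an adjusted p of 0.05. With no replicate block, 44 of the 46 were lower, 7 at an unadjusted p under 0.05, and 0 passed, so the pairing changed no call.

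Atp5c1, Atp5g1 and Cox6a2 turned sign. Atp5c1, with a difference of -0.25, was 0.27 with its probes averaged, where a dim probe runs the other way. Atp5g1 was -0.0029 with RNA input as a covariate, and -0.017 to 0.124 with a pool left out. Cox6a2 was -0.84 to 0.66 with a pool left out. The cause was not tested for the other changes. The number of pools, and for Uqcrq and Cox7b2 a signal near the floor, limit what can be detected.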
